A study of Homo sapiens with 10 samples.

Results

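The genes described here set the shape of mitochondria. They are the fusion genes OPA1, MFN1 and MFN2, the fission genes DNM1L, FIS1, MFF, MTFR1 and MTFP1, and the genes of the inner membrane proteases OMA1 and YME1L1. Members were chosen by gene symbol, each has 1 probe set, and together they are 10 of the 17687 genes with a value. Total RNA of arginine-starved prostate cancer cells went onto 10 Clariom S human arrays (Affymetrix), whose log2 values the authors made. CWR22Rv1 is an established castration-resistant line, and PC3 is another established line. In CWR22Rv1, a time course held 1 array each of cells with 24 h in control medium (-R0h), 24 h without arginine (-R24h) and 48 h without arginine (-R48h). A separate CWR22Rv1 experiment held 1 array each of control medium (+R), arginine-free medium (-R) and arginine-free medium with 5 mM dimethyl α-ketoglutarate (-R+DMKG), all for 48 h. The methods of the paper give 5 μM for this compound instead. In PC3, 2 arrays of control medium (+R) and 2 of arginine-free medium (-R) were taken at 48 h. All media were RPMI with dialyzed serum, with 200 mg/L arginine added back for the controls. The 48 h array of the time course thus differed from its control also in time in medium. No source used here says whether replicates are separate cultures, so the p-values cover the spread of these arrays alone.

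Mitochondria fuse and divide all the time. MFN1 and MFN2 are GTPases that join outer membranes, and OPA1 is the GTPase that joins inner membranes and keeps cristae tight. OMA1 and YME1L1 cut OPA1 into short forms, and OMA1 does so mainly under stress. DNM1L encodes DRP1, the cytosolic GTPase that constricts mitochondria, and the outer membrane proteins MFF and FIS1 are among its receptors. MTFP1 is an inner membrane protein and MTFR1 a regulator, both linked to fission. Much of this control acts on the proteins, through cleavage and phosphorylation, which an mRNA array does not measure. Elongated mitochondria are known from short nutrient starvation, when DRP1 is phosphorylated and fission slows. The study followed mitochondrial shape and OPA1 protein during starvation of CWR22Rv1, and the arrays bear on the mRNA of the same genes. The paper reports less OPA1 protein, with fragmented mitochondria, at a later time than any array here.

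In PC3 cells, 4 of the 10 genes fell after 48 h without arginine, namely MFN2 (2.26-fold), MFF (2.0-fold), OPA1 (1.73-fold) and MTFR1 (1.64-fold). Of all genes, 10.0% were called lower in PC3 and 19.6% in either direction. In CWR22Rv1 cells 1 member, FIS1, fell (1.71-fold), where 3.74% of all genes were called lower and 6.94% in either direction. No member rose in either line. At 24 h and with DMKG no member and 0% of all genes passed the test. The difference between the responses of both lines passed for 4.40% of all genes and for no member. A gene is called here at an adjusted p under 0.05 from 1 limma fit over all arrays, with Benjamini-Hochberg adjustment over all genes.

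Promoters of 3 members are shown: MFN2, with the largest difference in PC3, OPA1, as the core of inner membrane fusion, and FIS1, the member called in CWR22Rv1. Sequences are from RefSeq (GRCh38.p14), 5′ to 3′ on the strand of the gene, from 250 bases before to 50 bases after the annotated start. Of the 10 members, 8 have an entry. Capitals mark matches, on either strand, to any of 7 motifs: the NRF1 motif (GCGCA and GCGC with any base between them), the ETS motif CCGGAAG, the CCAAT box, the GC box GGGCGG, the C/EBP-ATF motif of ATF4 (TGATGNAAT), the cyclic AMP response element TGACGTCA and the E-box CACGTG.
MFN2 promoter, chr1:11980194-11980493, plus strand: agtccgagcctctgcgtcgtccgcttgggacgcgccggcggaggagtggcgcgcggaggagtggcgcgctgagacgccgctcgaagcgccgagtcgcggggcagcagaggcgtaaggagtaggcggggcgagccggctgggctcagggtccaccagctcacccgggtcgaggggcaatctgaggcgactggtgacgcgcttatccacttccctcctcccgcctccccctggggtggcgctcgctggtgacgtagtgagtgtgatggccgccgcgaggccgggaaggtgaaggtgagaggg
OPA1 promoter, chr3:193592958-193593257, plus strand: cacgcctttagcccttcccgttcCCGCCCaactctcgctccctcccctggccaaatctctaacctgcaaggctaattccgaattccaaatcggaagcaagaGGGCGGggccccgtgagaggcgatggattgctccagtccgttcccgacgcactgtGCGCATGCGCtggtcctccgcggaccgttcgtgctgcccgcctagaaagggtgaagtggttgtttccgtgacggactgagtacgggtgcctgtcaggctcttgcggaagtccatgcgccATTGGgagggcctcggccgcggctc
FIS1 promoter, chr7:101245032-101245331, minus strand: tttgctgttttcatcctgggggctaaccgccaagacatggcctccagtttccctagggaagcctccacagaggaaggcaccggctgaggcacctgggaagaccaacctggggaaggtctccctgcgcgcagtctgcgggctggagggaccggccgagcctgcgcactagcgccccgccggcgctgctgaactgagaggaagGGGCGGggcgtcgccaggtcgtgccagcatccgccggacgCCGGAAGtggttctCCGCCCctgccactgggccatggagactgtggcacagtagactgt
The OPA1 window holds an NRF1 match that begins 94 bases before the start, GC boxes at 227 and 149 bases before it, and a CCAAT box from base 26 of the transcript. NRF1 is a factor of many nuclear genes for mitochondrial proteins, and 5.78% of 35116 promoter windows hold its motif. FIS1 has an ETS match 9 bases before the start and GC boxes 49 bases before it and from base 6 of the transcript. ETS matches are in 10.3% of all windows, GC boxes in 45.0% and CCAAT boxes in 34.6%. None of the 7 motifs is in the MFN2 window, whose GC content is 71.3%. The C/EBP-ATF motif, found in 0.991% of all windows, the cyclic AMP response element, in 1.85%, and the E-box, in 7.26%, are in none of the windows of the 8 members. A match is a description of the letters and not a site in use. These windows say nothing of any distal element. The gene of MFF, also called in PC3, lies at chr2:227325251-227357836 of the same build.

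Before the values, 2 features of the arrays bear on all of them. The arrays of the DMKG experiment hold exactly equal values for many genes: 21.6% of genes between +R and -R, 26.3% between -R and -R+DMKG and 22.9% between +R and -R+DMKG, against at most 0.124% in the time course and 0.0339% in PC3. Among the members, MFN1, DNM1L and MTFP1 were equal between +R and -R, and OPA1, FIS1 and MTFP1 between -R and -R+DMKG. Such a pair gives a difference of exactly 0. The part of these equal values in the differences and in the spread was not tested. The 612 negative control probe sets had a 95th percentile between 6.78 and 8.75 on the arrays. This percentile was 8.75 on the second starved PC3 array and 7.79 to 7.94 on the other PC3 arrays. OPA1, MFN1, MFN2, DNM1L, MFF, MTFR1 and YME1L1 were above it on all 10 arrays, FIS1 and OMA1 on the 6 CWR22Rv1 arrays and on none of PC3, and MTFP1 on none. Of 4 epithelial markers, KRT8, KRT18 and EPCAM were above it on all 10 arrays, and CDH1 on 6 of 6 CWR22Rv1 and 0 of 4 PC3 arrays. FOLH1, a prostate luminal gene, was above the negative controls on 6 of 6 CWR22Rv1 and 0 of 4 PC3 arrays, and the PC3 markers VIM, AXL and CAV1 on 0 of 6 and 4 of 4. HOXB13 and CD44, taken as markers of CWR22Rv1 and of PC3, were both above them on all 10 arrays. The prostate luminal genes KLK3, KLK2 and TMPRSS2 were each above them on 1 of 6 CWR22Rv1 and 0 of 4 PC3 arrays. All 5 measured markers of leukocytes, endothelium and fibroblasts were above them on no array.

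**Figure D1:**
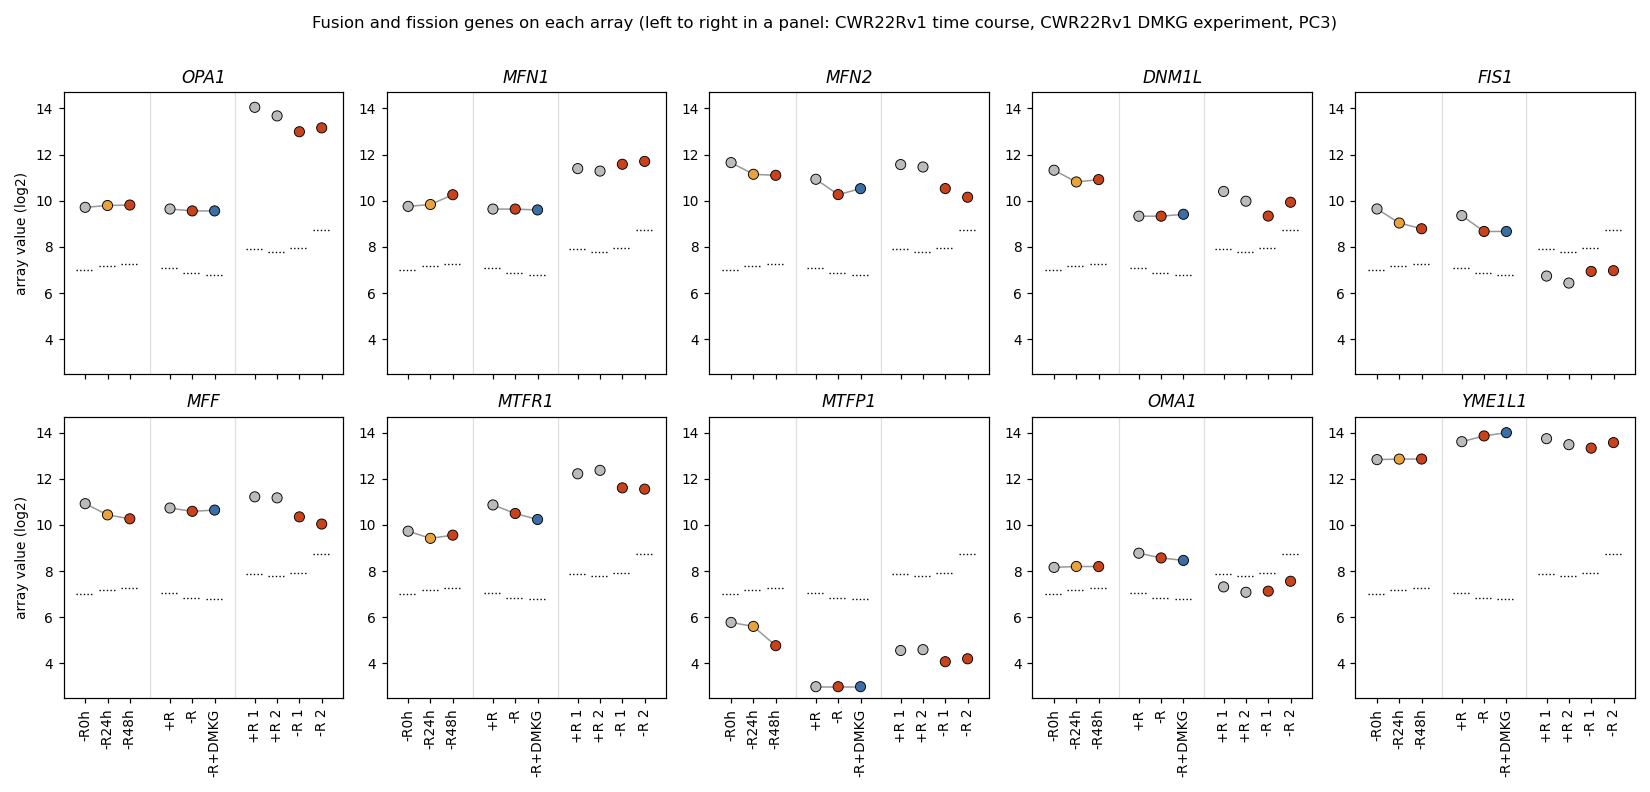
Log2 array value of each of the 10 genes (vertical axis) on each of the 10 arrays (horizontal axis), with grey points for control medium, orange for 24 h and red for 48 h without arginine, and blue for DMKG. Dotted lines give the 95th percentile of the negative controls of each array, and MFN2, MFF, OPA1 and MTFR1 were lower on both starved PC3 arrays than on both controls.

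Of the fusion genes, MFN2 had the largest fitted difference in PC3. It had log2 values of 11.57 and 11.47 in control medium and 10.53 and 10.16 without arginine. Both starved arrays were thus below both controls, with 0.93 between the nearest values. MFN2 fell by 1.17 on the log2 scale, which is 2.26-fold (standard error 0.19, adjusted p = 0.00479 from limma). The call of MFN2 held in 18 of 20 alternatives and with any 1 array left out. Without 1 of the PC3 arrays the difference lay between -0.99 and -1.36. The CWR22Rv1 arrays enter it only through the spread, so without 1 of them it stayed at -1.17. MFN2 has 1 probe set, so the mean of all probe sets left its values as they were.

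OPA1 had 14.05 and 13.68 in PC3 control medium and 12.99 and 13.16 without arginine. The starved arrays were again the lower pair, with a gap of 0.52 to the nearer control. OPA1 fell by 0.79 (1.73-fold, standard error 0.20, adjusted p = 0.0266 from limma). Its call ended without the first control array (-0.60, adjusted p = 0.156), without the first starved array (-0.70, adjusted p = 0.132) and without the second (-0.87, adjusted p = 0.0840), over a range of adjusted p from 0.00699 to 0.219 in its 20 alternatives. MFN1, the partner of MFN2 in joining outer membranes, had 11.40 and 11.29 in control medium and 11.58 and 11.71 without arginine. Its starved values were the higher pair, and the difference of 0.30 did not pass (adjusted p = 0.329 from limma, 95% interval -0.14 to 0.75).

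In CWR22Rv1 none of the 3 fusion genes passed the test. MFN2 went from 11.66 at 0 h to 11.15 at 24 h and 11.10 at 48 h, and from 10.93 in +R to 10.27 in -R. It was lower by 0.55 and 0.66 in the 2 experiments, and the fitted difference of -0.61 did not pass (standard error 0.19, adjusted p = 0.110 from limma). Under limma with trend and robust settings it did, with an adjusted p of 0.0429, and its adjusted p over all alternatives ranged from there to 1.0. OPA1 had 9.72, 9.80 and 9.82 at 0, 24 and 48 h, and 9.64 in +R, 9.56 in -R and 9.56 in -R+DMKG. The 6 values lay close together, and the fitted difference at 48 h was 0.01 with a 95% interval from -0.45 to 0.46. That interval holds no fall as large as the 0.79 fitted in PC3, but it overlaps the PC3 interval of -1.24 to -0.33. The difference between both responses did not pass (-0.80, adjusted p = 0.161 from limma). MFN1 had 9.76, 9.84 and 10.26 in the time course and 9.64 in both +R and -R. It was 0.50 higher at 48 h in one experiment and had equal values in the other, and its fitted 0.25 did not pass (adjusted p = 0.552).

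Among the fission genes, MFF, a receptor of DRP1 on the outer membrane, differed most in PC3. It had 11.22 and 11.18 in control medium and 10.35 and 10.04 without arginine. The control arrays differed by little, and both starved arrays lay at least 0.82 below them. MFF fell by 1.0, or 2.0-fold (standard error 0.20, adjusted p = 0.0118 from limma), and its adjusted p in 20 alternatives ranged from 0.00270 to 0.147. The call ended without the first control array (-0.98, adjusted p = 0.0676), without the second (-1.02, adjusted p = 0.0576) and without the second starved array (-0.85, adjusted p = 0.0864). MTFR1 had 12.22 and 12.37 in control medium and 11.61 and 11.55 without arginine. Again the starved arrays were the lower pair, with a gap of 0.61. MTFR1 fell by 0.71 (1.64-fold, standard error 0.17, adjusted p = 0.0245), and the call ended whenever 1 of the 4 PC3 arrays was left out, with differences from -0.64 to -0.79 and adjusted p from 0.0761 to 0.128.

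DNM1L, the gene of DRP1 itself, had 10.41 and 9.98 in PC3 control medium and 9.34 and 9.94 without arginine. The higher starved value lay 0.05 below the lower control. Its difference of -0.56 did not pass (standard error 0.26, adjusted p = 0.177 from limma, 95% interval -1.15 to 0.03). FIS1, another outer membrane receptor, had 6.74 and 6.44 in control medium and 6.94 and 6.97 without arginine, all below the 95th percentile of the negative controls. The starved values were the higher pair, and the difference of 0.37 did not pass (adjusted p = 0.213). MTFP1 had 4.56 and 4.60 in control medium and 4.08 and 4.20 without arginine, within the range of the negative controls, and its difference of -0.44 did not pass (adjusted p = 0.263).

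FIS1 was the called member in CWR22Rv1. It had 9.65 at 0 h, 9.04 at 24 h and 8.79 at 48 h, and 9.36 in +R against 8.67 in both -R and -R+DMKG. Each starved array was below the control of its own experiment, and -R and -R+DMKG are one of the pairs with exactly equal values. The difference was -0.86 in one experiment and -0.69 in the other, and the fitted fall was 0.77, or 1.71-fold (standard error 0.19, adjusted p = 0.0463 from limma). Leaving out -R24h or -R+DMKG returned the same adjusted p, as each of these arrays has an effect of its own in the fit. FIS1 has 1 probe set, so the mean of all probe sets left its values as they were. The call of FIS1 held in 7 of 20 alternatives, with those settings among the 7. It ended when any of 8 arrays was left out, which are the 4 control and 48 h arrays of CWR22Rv1 and the 4 PC3 arrays, with differences from -0.69 to -0.86 and adjusted p from 0.0646 to 0.239.

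The other fission genes did not pass in CWR22Rv1. MFF had 10.92, 10.44 and 10.27 in the time course and 10.74 in +R against 10.59 in -R. It was lower by 0.66 in the first and by 0.14 in the second experiment, with a fitted difference of -0.40 (adjusted p = 0.338 from limma). DNM1L had 11.33, 10.82 and 10.92 in the time course, and 9.33 in +R, 9.33 in -R and 9.42 in -R+DMKG. Its control values thus differed by 1.99 between the 2 experiments, a gap that 2.76% of genes match or exceed, while its fitted starvation difference was -0.20 (adjusted p = 0.754, 95% interval -0.79 to 0.39). MTFR1 had 9.73, 9.42 and 9.56 in the time course and 10.87 in +R against 10.50 in -R, a fitted difference of -0.27 (adjusted p = 0.466). MTFP1 had 5.78, 5.61 and 4.77 in the time course and 3.0 on all 3 arrays of the DMKG experiment, so its fitted -0.50 (adjusted p = 0.308) averages 1.01 lower in one and exactly 0 in the other.

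The OPA1 proteases differed little. OMA1 had 8.16, 8.20 and 8.20 in the time course and 8.78, 8.57 and 8.46 in +R, -R and -R+DMKG. In PC3 it had 7.32 and 7.09 in control medium against 7.13 and 7.56 without arginine, below the 95th percentile of the negative controls, and the groups overlapped. Its fitted differences were -0.08 in CWR22Rv1 (adjusted p = 0.894 from limma) and 0.15 in PC3 (adjusted p = 0.697). YME1L1 had 12.83, 12.85 and 12.86 in the time course, where it hardly moved, and 13.61 in +R against 13.86 in -R. In PC3 it had 13.74 and 13.48 against 13.33 and 13.57, again with overlap. Its differences were 0.14 (adjusted p = 0.785, 95% interval -0.31 to 0.58) and -0.16 (adjusted p = 0.631, 95% interval -0.60 to 0.28).

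Over all 10 members, the median difference at 48 h was -0.24 in CWR22Rv1 and -0.50 in PC3, against 0.02 over all genes in each line. In each line 7 members had a negative and 3 a positive difference. Negative differences made up 47.2% of all genes in CWR22Rv1 and 47.9% in PC3. In PC3 the starved and control values did not overlap for 8 members, 6 of them lower when starved, and this held for 59.9% of all genes, 28.6% lower. Fusion and fission genes were both among those lowered, with 2 of 3 fusion genes, 2 of 5 fission genes and neither protease called in PC3. The 2 CWR22Rv1 experiments and the 4 PC3 arrays entered 1 fit and share its estimate of the spread.

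**Figure D2:**
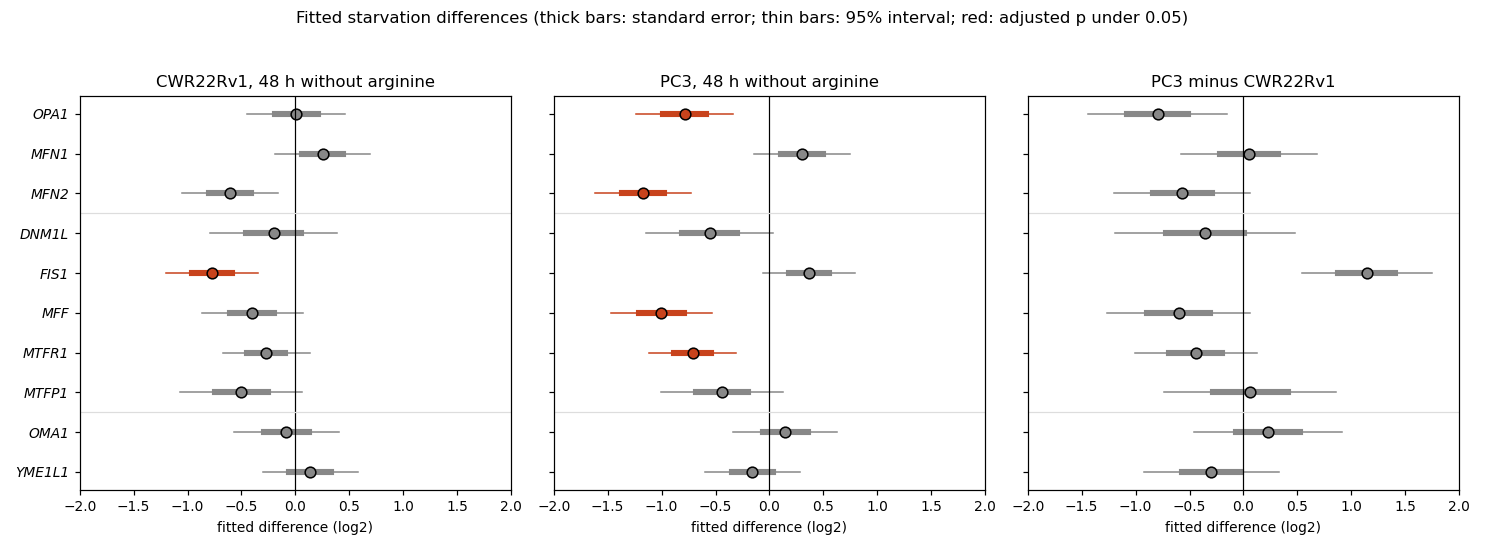
Fitted log2 difference (horizontal axis) of each gene after 48 h without arginine in CWR22Rv1 and in PC3, and the difference between both, with thick bars for the standard error and thin bars for the 95% interval. Red marks an adjusted p under 0.05: FIS1 in CWR22Rv1, and OPA1, MFN2, MFF and MTFR1 in PC3, all lower.

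The difference between the responses of the 2 lines was tested in the same fit. FIS1 came nearest to passing, with a response 1.14 higher in PC3 (standard error 0.26, adjusted p = 0.0522 from limma, 95% interval 0.54 to 1.74). Its adjusted p ranged from 0.0339 to 0.435 and passed in 4 of 18 alternatives. In PC3 FIS1 was below the negative control percentile on every array. Whether this bears on the difference was not tested. OPA1 differed by -0.80 (adjusted p = 0.161, 95% interval -1.44 to -0.15), MFF by -0.60 (adjusted p = 0.302), MFN2 by -0.57 (adjusted p = 0.304) and MTFR1 by -0.44 (adjusted p = 0.375). That these 4 were called in one line and not in the other is therefore not shown to be a difference between the lines.

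At 24 h, which asks for an early response in CWR22Rv1, no gene was called. At an unadjusted p under 0.05 stood 1 member and 2169 genes. The member was FIS1, 0.61 lower at 24 h than at 0 h, with a fitted difference of -0.57 (standard error 0.25, unadjusted p = 0.0491 from limma, adjusted p = 0.404). Between 24 h and 0 h MFN2 was lower by 0.51, DNM1L by 0.51, MFF by 0.48, MTFR1 by 0.31 and MTFP1 by 0.17, while MFN1, OPA1, OMA1 and YME1L1 were higher by 0.08, 0.08, 0.04 and 0.02. From 24 h to 48 h FIS1 was lower by a further 0.25, MFF by 0.17 and MFN2 by 0.04. MTFP1 was lower by 0.83 and MFN1 higher by 0.42 over the same step. Each of these is a difference of single arrays. The 0 h array serves both time points. The fitted 24 h value also takes in part of the gap between both experiments at 48 h, which turns the sign for MFN1 (-0.04 fitted), OMA1 (-0.02) and MTFP1 (0.08).

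DMKG is a membrane-permeable form of α-ketoglutarate, and its comparison asks whether it changes the starved state. No gene was called, with 0 members and 360 of 17687 genes at an unadjusted p under 0.05 in limma. From -R to -R+DMKG, MFN2 went from 10.27 to 10.53, which is 0.26 higher and covers part of the 0.66 by which -R was below +R. MTFR1 went from 10.50 to 10.24, 0.26 lower and farther from its control of 10.87. YME1L1 was 0.14 higher, OMA1 0.11 lower, DNM1L 0.08 higher, MFF 0.05 higher and MFN1 0.04 lower, and OPA1, FIS1 and MTFP1 had equal values. In the fit MFN2 differed by 0.23 (standard error 0.26) and MTFR1 by -0.31 (standard error 0.23), both with an adjusted p of 1.0. The -R array is also the starved array of the 48 h comparison.

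**Figure D3:**
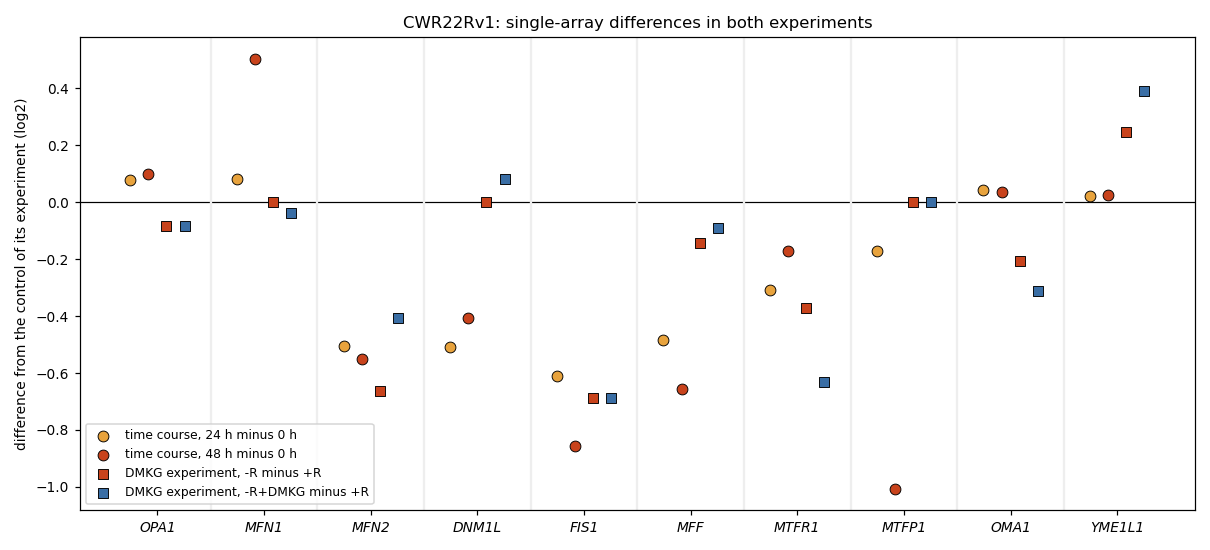
Log2 difference of single arrays from the control of their own experiment (vertical axis) for each gene in CWR22Rv1, with circles for the time course at 24 h (orange) and 48 h (red) and squares for the DMKG experiment without (red) and with DMKG (blue). FIS1 and MFN2 are below 0 in both experiments, and MFN1, DNM1L and MTFP1 have red squares at exactly 0.

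Levels between the 2 lines are described only after quantile normalization over all arrays, without a test, because the distributions of the sets differed: the mean gap of sorted values was 0.0109 to 0.0590 within a set and 0.0684 to 0.554 between sets. On that scale OPA1 in control medium was 9.96 and 10.01 in CWR22Rv1 and 13.74 and 13.37 in PC3, higher by 3.56 in PC3. FIS1 was the reverse, with 9.90 and 9.73 against 6.34 and 6.07. OMA1 was also lower in PC3. Neither was above the negative controls on any PC3 array, so the size of these gaps is not given, and MTFP1, above them on no array, was not compared. DNM1L was lower in PC3 by 0.96, MFN2 by 0.56, MFF by 0.42 and YME1L1 by 0.21, and MTFR1 and MFN1 were higher by 1.27 and 0.87. The CWR22Rv1 controls of the 2 experiments differed by more than the lines did for DNM1L (1.91), YME1L1 (0.72) and MFN2 (0.66). For MTFR1 they differed by 1.23, close to the 1.27 between the lines. For OPA1 and FIS1 they differed by 0.05 and 0.17.

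Lists of related genes give the setting, and they were chosen with earlier results of these data known. Some genes are in more than 1 list. Of 11 measured fusion regulators, 1 rose in CWR22Rv1 and 3 in PC3, and none fell, with medians of -0.17 and -0.23. Of all genes, 6.94% were called in CWR22Rv1 and 19.6% in PC3 in either direction, with a median of 0.02 in each line, and the counts of this list and of those that follow stand beside these shares. USP30, an outer membrane deubiquitinase that removes ubiquitin from mitofusins, rose by 1.05 in CWR22Rv1 (adjusted p = 0.0168 from limma) and by 0.93 in PC3 (adjusted p = 0.00968). In CWR22Rv1 it was 1.09 higher in the time course and 1.01 higher in the DMKG experiment. PLD6, a mitochondrial phospholipase that acts with the mitofusins, rose by 1.77 in PC3, and MIGA1, which binds it, by 0.93. Of 14 further fission regulators, 1 rose and 1 fell in CWR22Rv1, and 2 rose and 2 fell in PC3, against the same 6.94% and 19.6% of all genes. MARCHF5, a ubiquitin ligase of the outer membrane, rose by 0.83 in CWR22Rv1, where the phosphatase PGAM5 fell by 0.94. In PC3 MTFR1L, a relative of MTFR1, fell by 1.03, and the actin nucleator SPIRE1 and the anchoring protein AKAP1 rose by 0.98 and 0.71.

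Of 15 measured enzymes that modify DRP1, 1 rose and 5 fell in CWR22Rv1, and 1 rose and 7 fell in PC3, with medians of -0.36 and -0.56. CCNB1, the cyclin of the kinase that phosphorylates DRP1 in mitosis, fell by 2.28 in CWR22Rv1 (adjusted p = 0.00232 from limma) and fell by 4.37 in PC3 (adjusted p = 4.1e-05). CDK1, that kinase, fell by 3.01 in PC3 (adjusted p = 5.1e-05) and differed by -0.04 in CWR22Rv1 (adjusted p = 0.936). AURKA, a mitotic kinase upstream, fell by 1.21 in CWR22Rv1 and fell by 3.51 in PC3. These 3 are genes of dividing cells, and fewer dividing cells and less RNA per cell cannot be told apart in bulk samples. PPP3CB, a catalytic subunit of calcineurin, which removes phosphate from DRP1, fell by 1.45 in CWR22Rv1 and by 1.19 in PC3. Its -R48h value of 7.18 was below the 95th percentile of the negative controls of that array (7.28). CCNB1 had 8.64 on the second starved PC3 array, also below the percentile there (8.75).

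In the cristae list, 1 of 11 genes rose and 1 fell in CWR22Rv1, and 2 fell in PC3. SAMM50, of the outer membrane sorting machinery that holds the cristae junctions, fell by 1.51 in CWR22Rv1 and fell by 1.15 in PC3, and CHCHD3 of the MICOS complex rose by 0.95 in CWR22Rv1. Of 10 measured mitophagy genes, 4 rose in each line and none fell, with medians of 0.54 and 0.38. SQSTM1, a cargo receptor, rose by 1.96 in CWR22Rv1 (adjusted p = 0.00588 from limma) and by 1.64 in PC3 (adjusted p = 0.00253). Of 9 outer membrane and mass markers, none was called in CWR22Rv1, while 1 rose and 3 fell in PC3. In CWR22Rv1 3 of these markers had an unadjusted p under 0.05 in limma, against 20.5% of all genes. TOMM20, the import receptor that the study stained to see mitochondria, rose by 0.94 in PC3 (adjusted p = 0.00833) and differed by 0.08 in CWR22Rv1, where its 3 values in the DMKG experiment were all 11.71. The porin gene VDAC3 fell by 1.32 in PC3.

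The OMA1 relay carries mitochondrial stress through DELE1 and the kinase encoded by EIF2AK1 to ATF4. Of 4 measured genes, 1 fell in CWR22Rv1, and 2 rose and 1 fell in PC3. EIF2AK1 fell by 0.83 in CWR22Rv1 and by 1.06 in PC3, while ATF4 rose by 1.48 in PC3. ATF4 differed by 0.50 in CWR22Rv1 and did not pass (adjusted p = 0.176 from limma), nor did its difference between the lines (adjusted p = 0.0835). Its target DDIT3 was called higher in PC3 (adjusted p = 0.0220 from limma), with 9.07 and 8.84 without arginine against 6.83 and 6.97 in control medium, where it was not above the negative controls, so the size of its rise is not given. In CWR22Rv1 DDIT3 was 0.58 lower at 48 h in the time course and 2.01 higher in the DMKG experiment. Its fitted difference there of 0.71 did not pass (adjusted p = 0.499 from limma). DELE1 differed by -0.38 in CWR22Rv1 (adjusted p = 0.390 from limma) and by 0.24 in PC3 (adjusted p = 0.491). Of 7 other quality-control proteases, HTRA2, a protease of the intermembrane space, fell by 1.10 in CWR22Rv1 (adjusted p = 0.0128) and rose by 0.64 in PC3 (adjusted p = 0.0351), and no other was called in either line. Of 7 motility genes, none was called in CWR22Rv1, with 1 at an unadjusted p under 0.05 in limma, against 20.5% of all genes. In PC3 MYO19, a myosin of mitochondria, fell by 1.48 and FHL2 rose by 1.0. MYO19 had 8.42 on the second starved PC3 array, below the 95th percentile of the negative controls there (8.75).

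**Figure D4:**
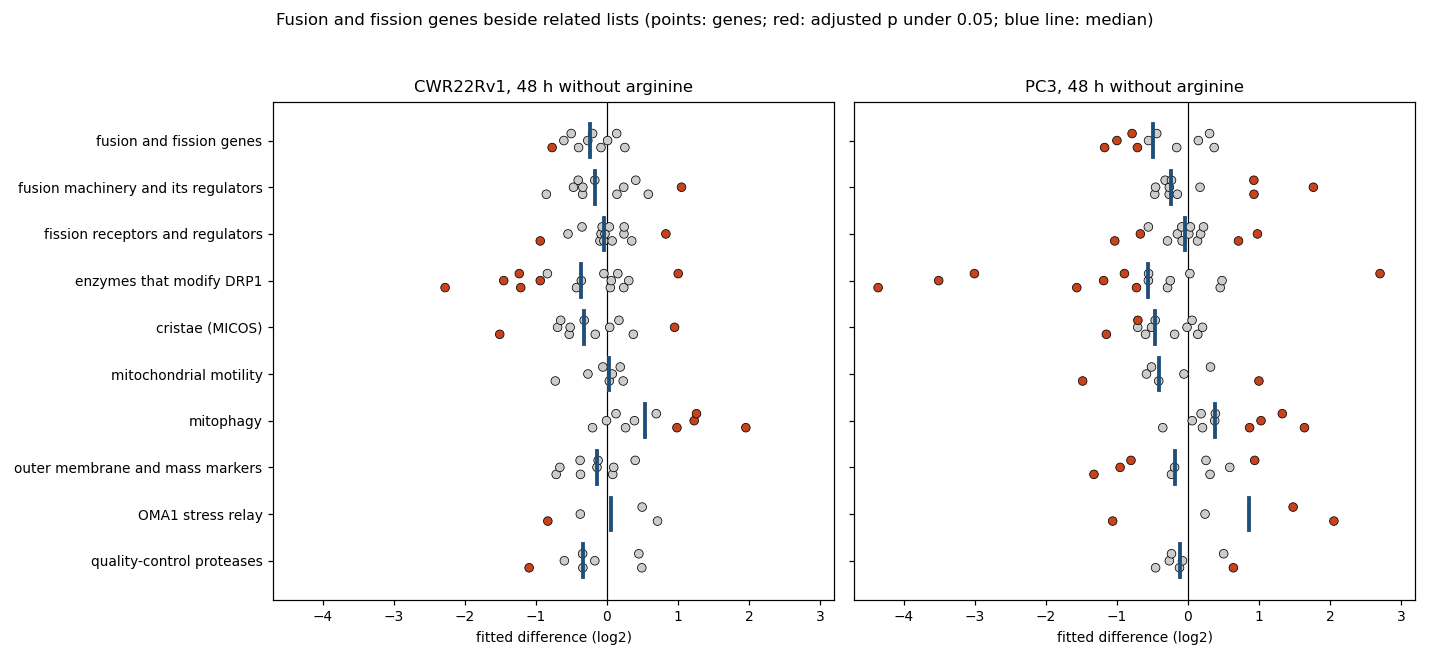
Fitted log2 difference (horizontal axis) of each gene after 48 h without arginine in CWR22Rv1 and in PC3, by list, with red points for an adjusted p under 0.05 and a blue line for the median. In the top row, the called genes among the 10 members are all on the lower side, between -0.71 and -1.17, and the called mitophagy genes are all on the higher side.

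Genes whose pattern was most like that of OPA1 and DNM1L were found by Pearson correlation over the 10 arrays after each set was centred on its own mean, among 5438 genes above the negative control percentile on all arrays. For OPA1 they were VPS4A (0.977), MTOR (0.971), NDUFA12, CCDC59 and KIF2A (0.970 each). OPA1 varied by at most 0.10 within a CWR22Rv1 experiment and by 1.06 in PC3, so nearly all of its spread was between PC3 arrays. For DNM1L they were ATP23 (0.961), TMEM248 (0.954), ABCF3 (0.941), CDK12 (0.934) and TUBD1 (0.921). The arrays share their set and its normalization, and such values over 10 points describe these arrays only.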

How the data were processed

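The authors made the deposited log2 values in the Transcriptome Analysis Console. Its version and how it corrected background and normalized arrays stand in no source used here. Of 24351 probe sets, 17709 carry a single gene symbol, and where several share one (20 genes) the set with the highest mean was kept, which left 17687 genes. One linear model in limma 3.58.1 (R 4.3.3) had an intercept for each set (time course, DMKG experiment, PC3) and effects of 24 h, of 48 h in both CWR22Rv1 experiments, of DMKG and of starvation in PC3. It left 3 residual degrees of freedom, with a prior of 5.09. Single arrays are assumed to vary like the others, and their number limits the precision. Comparisons share control arrays. The study's methods name an unpaired t-test, which was run as an alternative. The fit was tested on simulated data. Members and gene lists were chosen with earlier results of these data known. Of each related list, up to 3 genes with the smallest p in each line are named, with CDK1, CCNB1 and TOMM20. PIM1 is named for the difference between the lines. In all, 22 alternatives were tried. The counts of alternatives and the ranges of adjusted p given for a member leave out the 2-fold minimum and the unadjusted t-test. Sequences and positions are RefSeq's (GRCh38.p14). Drawings used matplotlib 3.10.9 under Python 3.11.15.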

Additional observations from a re-analysis of the deposited data

Results flagged for a closer look

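For several genes of the related lists the starvation response differed between the lines by the test of the difference itself. Differences are PC3 minus CWR22Rv1 on the log2 scale, from limma's fit over all genes. CDK1 differed by -2.97 (adjusted p = 0.00243), AURKA by -2.30 (adjusted p = 0.00397) and CCNB1 by -2.08 (adjusted p = 0.00672), each lower in PC3. PIM1, also among the enzymes that modify DRP1, differed by 1.70 (adjusted p = 0.0215 from limma), with a larger rise in PC3. HTRA2 differed by 1.74 (adjusted p = 0.0100), with a fall in CWR22Rv1 and a rise in PC3. OPTN, a mitophagy receptor, differed by 1.34 (adjusted p = 0.0403), but its CWR22Rv1 values, from 4.06 to 4.93, lay below the 95th percentile of the negative controls. No fusion or fission gene met this test. Groups held at most 2 arrays, so no single array was tested as an outlier.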

How the results depend on the processing

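In CWR22Rv1 the count of 1 called member at 48 h was 0 with each line fitted on its own, without a term for the experiment, with a separate 48 h effect in each experiment, with the PC3 replicate number as a replicate block, with a 2-fold minimum and with the methods' t-test after adjustment, and 2 (FIS1 and MFN2) with trend and robust settings. It was 0 to 1 with an array left out. In PC3 the count of 4 was 0 without a term for the experiment and with the adjusted t-test, 2 (MFN2 and MFF) with a 2-fold minimum, 4 with the replicate block, and 1 to 4 with an array left out. The deviations of PC3 arrays of the same number correlated at -0.03, so the numbers were not taken as pairs. For the difference between the lines the count of 0 was 1 (FIS1) with quantile normalization, with arrays centred on their median, with the lowest 30% of genes left out and with trend and robust settings. At 24 h and with DMKG it was 0 in each alternative run.

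Over all genes the calls ranged from 0 to 1910 in CWR22Rv1 at 48 h (1228), from 10 to 4398 in PC3 (3467), from 0 to 91 at 24 h (0), from 0 to 1 with DMKG (0) and from 0 to 1287 for the difference (778). Directions of members that were not called turned as follows. Without a term for the experiment the 24 h value was 0.14 for MFN1, 0.49 for DNM1L and -0.37 for YME1L1, and the DMKG value -0.16 for MFN2, -0.71 for DNM1L, -0.059 for FIS1, 0.079 for OMA1, 0.21 for MTFR1 and -0.89 for MTFP1. With a separate 48 h effect the 24 h value was 0.082 for MFN1, 0.041 for OMA1 and -0.17 for MTFP1. With an array left out, the 48 h value in CWR22Rv1 ranged from -0.082 to 0.10 for OPA1 and from -0.20 to 0.037 for OMA1, that in PC3 from -0.068 to 0.36 for OMA1. The 24 h value ranged from -0.10 to 0.079 for OPA1, from -0.42 to 0.082 for MFN1, from -0.48 to 0.027 for MFF, from -0.20 to 0.041 for OMA1 and from -0.17 to 0.83 for MTFP1, and the difference between the lines from -0.20 to 0.30 for MFN1 and from -0.44 to 0.57 for MTFP1. The causes were not tested. MTFP1 has no value with the lowest 30% of genes left out, and the 24 h and DMKG values cannot be had without their own array. No member called in the main fit turned its direction in an alternative.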
